A study of Equus caballus with 19 samples.

Results

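VLDLR and LRP3 belong to the lipoprotein receptor family, whose members include receptors that take up lipoproteins from the fluid around a cell. The 2 genes were chosen from earlier results of these same arrays. In those results VLDLR was lower and LRP3 higher in horses kept in an enriched environment (EE) than in control horses. The difference between the treatments is therefore given below as a description, without a test. Of 43384 different probes on the array, 1 was named as a VLDLR probe and 1 as an LRP3 probe. Each was printed as a single spot, and no other probe carried the same transcript name. VLDLR and LRP3 are 2 of 1179 genes that could be named on the array. Most probes could not be named, so another probe of either gene under a different name would not have been seen. Agreement between probes of VLDLR or of LRP3 could therefore not be examined. Both genes took their symbols from the study's own lists, since their transcript names (ENSECAT00000024225 for VLDLR and ENSECAT00000010736 for LRP3) matched no transcript of the reference table, which lists genes by symbol and RefSeq accession.

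The 19 animals were Welsh foals that entered the treatments at an age of 10 months, and blood was drawn 12 weeks later. In the control group (6 males and 3 females), each foal was stabled singly on shavings all the time, apart from short outings to a small paddock of its own. The EE group (4 males and 6 females) differed from the control group in company, space, bedding, feed and stimulation. Its foals lived as a herd at pasture for most of each day. Straw stalls, larger than those of the control group, held them singly for the remaining hours. Rations, objects, scents and music were varied. RNA of whole venous blood was hybridised with a single dye, 1 array per horse, so every cell type of the blood contributed to a signal.

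Receptors of this family carry repeated cysteine-rich ligand-binding modules on the outside of the cell and bring bound cargo into it by endocytosis. VLDLR binds triglyceride-rich lipoproteins that carry apolipoprotein E, and in the brain it is also a receptor for the secreted protein reelin. LRP3 is a less studied member whose ligands are poorly known. MYLIP, also called IDOL, is a ubiquitin ligase that marks VLDLR for degradation.

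Signals are given as the log2 of the background-corrected signal after each array was scaled to a 75th percentile of 500. In control horses the VLDLR signal ran from 4.28 in horse647 to 5.95 in horse477, with a median of 5.06. In EE-treated horses it ran from 3.77 in horse475 to 4.63 in horse468, with a median of 4.14. VLDLR was thus low in most EE-treated horses, and the groups overlapped only through 2 control horses (horse645 and horse647) and 2 EE-treated horses (horse468 and horse646). 8 of 10 EE-treated horses were below every control horse, and 7 of 9 control horses were above every EE-treated horse. Over all 43384 probes, 1.82% were called between the treatments at an unadjusted p under 0.005 with EE over control at 1.2 or more or at 0.8 or less, a contrast that the choice of both genes used.

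Control horses had a mean VLDLR signal of 5.07 ± 0.50 (SD, n = 9), and the mean of EE-treated horses was 4.13 ± 0.26 (SD, n = 10). As EE minus control, the difference was -0.93 with a standard error of 0.18, which is a ratio of 0.524. It was larger than the SD of either group, and 10 of 10 EE-treated horses had less signal than the control mean. With normexp, another background correction described below, the difference was only -0.21 with a standard error of 0.11. The SD of the control horses was 1.90 times that of the EE-treated horses. In bulk blood, fewer cells of a type that carries the transcript and less of it per cell cannot be told apart.

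LRP3 ran the other way. Its signal in control horses ran from 5.49 in horse470 to 6.37 in horse472, with a median of 6.10. In EE-treated horses it ran from 6.27 in horse649 to 7.16 in horse646, with a median of 6.58. LRP3 was high in most EE-treated horses, and the overlap came from 2 control horses (horse471 and horse472) and 2 EE-treated horses (horse649 and horse651). None of these 4 horses was among the 4 that overlapped for VLDLR.

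Control horses had a mean LRP3 signal of 5.99 ± 0.33 (SD, n = 9), against 6.63 ± 0.28 (SD, n = 10) for EE-treated horses. The difference was 0.64 with a standard error of 0.14, a ratio of 1.56. In 10 of 10 EE-treated horses LRP3 exceeded the control mean, and in 9 of 9 control horses it was below the EE mean. Among the 24524 probes well above background on every array, 35 (0.143%) had a difference at least as far down as that of VLDLR and 251 (1.02%) one at least as far up as that of LRP3. The median difference of those probes was 0.01. Both genes were chosen on this difference, so the 2 shares describe its size and are no test.

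**Figure D1:**
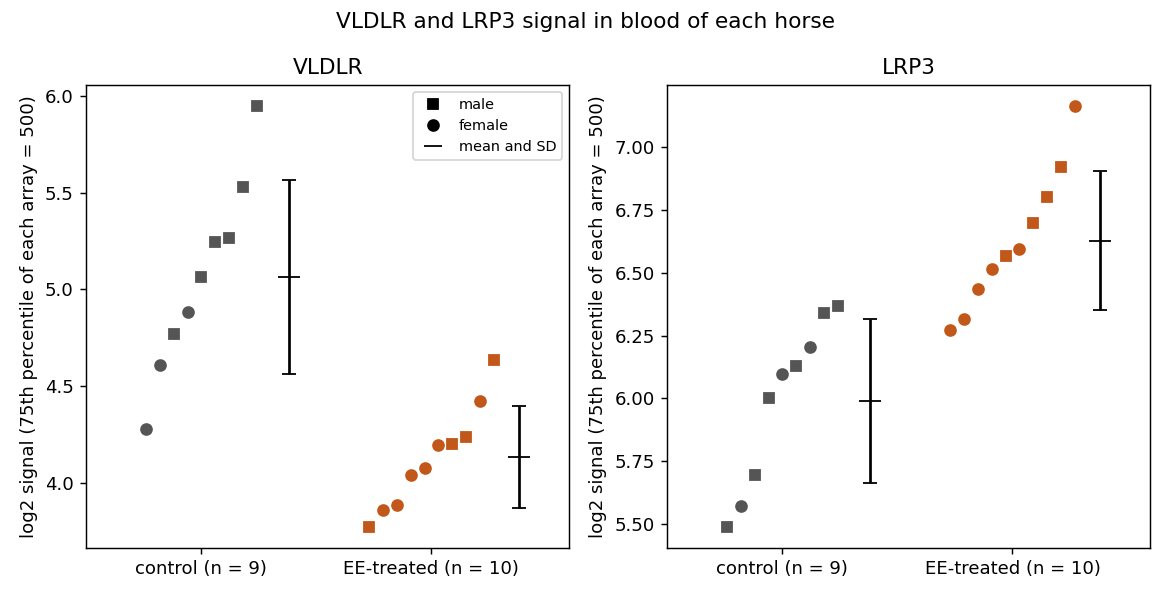
VLDLR (left) and LRP3 (right) log2 signal of each horse, ordered within each treatment, with squares for males, circles for females, and bars for the mean and SD (n = 9 control, n = 10 EE-treated). VLDLR runs from 4.28 to 5.95 in control and 3.77 to 4.63 in EE-treated horses, and LRP3 from 5.49 to 6.37 and 6.27 to 7.16.

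Both probes were marked well above background in 9 of 9 control horses and 10 of 10 EE-treated horses, and neither spot was marked as an outlier. VLDLR was nevertheless a dim spot. The ratio of its spot median to the local background was between 2.12 and 6.24 in control horses and between 1.42 and 2.89 in EE-treated horses. The same ratio for LRP3 was between 3.36 and 6.21 in control horses and between 3.09 and 7.87 in EE-treated horses. The VLDLR spot of EE-treated horses was therefore the one measured closest to its background.

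The scanner software gives an error for each signal, which comes from its error model and not from repeated spots. For VLDLR this error was a median of 0.15 log2 units in control horses and 0.18 in EE-treated horses. For LRP3 both medians were 0.14. These errors were smaller than the SD between horses in each group, 0.50 and 0.26 for VLDLR and 0.33 and 0.28 for LRP3. Normexp, another background correction, was run on the median spot and background intensities and adds an offset of 50. With it the VLDLR difference was -0.21 with a standard error of 0.11, and that of LRP3 was 0.42 with a standard error of 0.09. The parts of the offset and of the other intensities in this change were not tested.

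The arrays lay on 5 slides scanned in 2 sessions, and every slide held horses of both treatments. With slide as a block the difference was -0.91 for VLDLR (standard error 0.17) and 0.61 for LRP3 (standard error 0.12). This fit held no sex term. Within the slides the VLDLR difference ran from -1.38 on slide 1 to -0.32 on slide 2, and it was -1.16 on slide 3. On slides 1 and 3 both control horses were males and both EE-treated horses females, so sex and treatment cannot be told apart there. On slide 2 both control horses were females. The LRP3 difference ran from 0.47 on slide 5 to 0.80 on slide 3. Both directions held on 5 of 5 slides, and on 4 of them the horses of the treatments did not overlap. Both genes were chosen on the treatment difference, so these counts describe it and are no test. The share of all probes with such counts is not given. For VLDLR the overlap was on slide 2, where EE-treated animal horse468 (4.63) lay above control animal horse647 (4.28). For LRP3 it was on slide 4, where control animal horse472 (6.37) lay above EE-treated animal horse651 (6.31). Slides 1 to 4, which made up the first scanning session, gave -0.94 for VLDLR and 0.64 for LRP3. The second session held slide 5 alone, with 1 control horse and 2 EE-treated horses, where the differences were -0.76 and 0.47.

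The place of an array on its slide followed the treatment. Control arrays lay at positions 2 and 4 and EE arrays at positions 1 and 3, except that of EE-treated animal horse475, at position 2. At that position horse475 had a VLDLR signal of 3.77, against 4.28 to 5.27 in the 4 control horses there. Its LRP3 signal was 6.92, against 5.49 to 6.37. That horse stood on the EE side of the controls at its own position in both genes, but with 1 such horse treatment and position cannot be told apart.

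**Figure D2:**
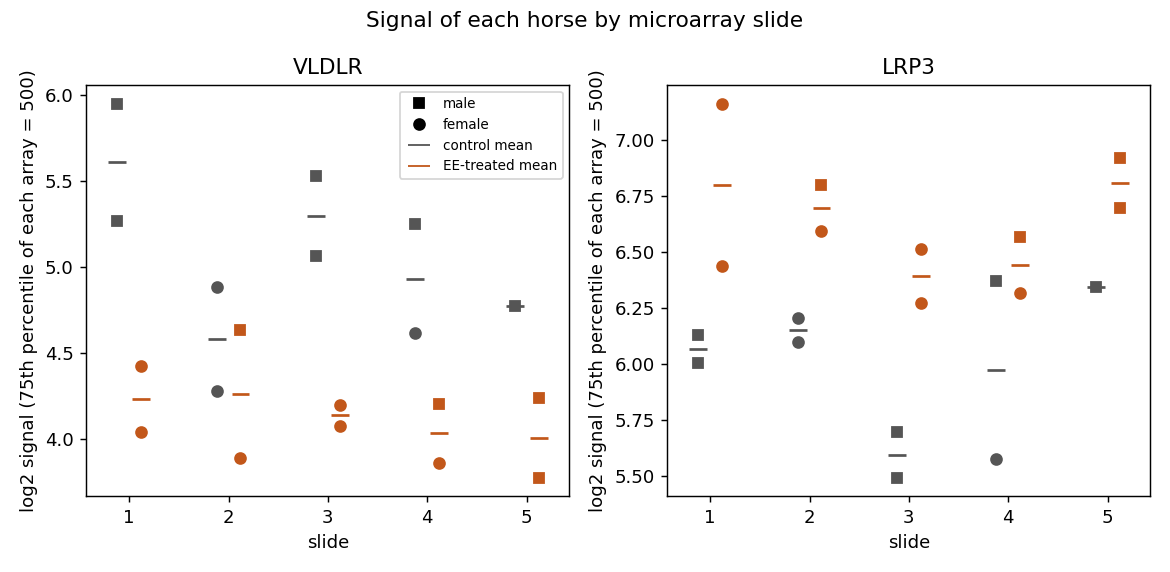
VLDLR (left) and LRP3 (right) log2 signal of each horse by slide, with squares for males, circles for females and short lines for the mean of control (grey) and EE-treated (orange) horses of a slide. The EE mean is below the control mean for VLDLR and above it for LRP3 on 5 of 5 slides, the directions on which the genes were chosen.

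Sex played no part in the choice of the genes and was tested with treatment in the fit. In control horses the VLDLR signals of the 3 females were 4.28, 4.61 and 4.88. Those of the 6 males ran from 4.77 to 5.95, and 5 of the 6 lay above every female. In EE-treated horses the 4 males ran from 3.77 to 4.63, which spanned the 6 females (3.86 to 4.42). VLDLR was thus higher in most control males than in control females, while the sexes overlapped in EE-treated horses.

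Over both treatments VLDLR was 0.40 higher in males than in females (limma, 95% interval 0.05 to 0.74, unadjusted p = 0.0269), and this did not pass the correction over all probes (adjusted p = 0.830). At an unadjusted p under 0.05 the same fit called 5.97% of all probes, and at an adjusted p under 0.05 it called 0.053%. An exact permutation of sex within each treatment, over 17640 arrangements, gave a two-sided p = 0.0267 for VLDLR, unadjusted. Within control horses alone the difference was 0.71 (exact permutation p = 0.0476, where 84 arrangements allow no p below 0.0119). Within EE-treated horses alone it was 0.13 (exact permutation p = 0.476). These were 3 of 6 such permutation tests, the others being those of LRP3, and the splits by treatment were chosen after seeing the data.

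Males and females were not spread evenly over the slides. With slide as a block, the male minus female difference of VLDLR was 0.57 (limma unadjusted p = 0.00182, adjusted p = 0.668). In the first scanning session alone it was 0.61 (unadjusted p = 0.00205, adjusted p = 0.853), and with normexp it was 0.07 (unadjusted p = 0.545). On slides 1 and 3 both control horses were males and both EE-treated horses females.

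For LRP3 the sexes differed little beside their spread. Control males ran from 5.49 to 6.37 and control females from 5.57 to 6.21, while EE-treated males ran from 6.57 to 6.92 and EE-treated females from 6.27 to 7.16. Males were 0.13 higher (limma, 95% interval -0.18 to 0.43, unadjusted p = 0.389, adjusted p = 0.861), and the exact permutation within treatment gave p = 0.381. With slide as a block the difference was 0.09 and with normexp 0.015, and it ran from 0.06 without control animal horse645 to 0.19 without EE-treated animal horse646.

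Since the EE-treated group held fewer males, the treatment difference was also taken within each sex. For VLDLR it was -1.09 in males (6 control and 4 EE-treated) and -0.51 in females (3 control and 6 EE-treated). All 4 EE-treated males lay below every control male, and 5 of 6 EE-treated females below every control female. For LRP3 it was 0.74 in males and 0.59 in females, and within each sex every EE-treated horse lay above every control horse. Both genes were chosen on the treatment difference, so these counts describe it and are no test. With sex as a covariate the differences were -0.83 for VLDLR and 0.67 for LRP3.

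Whether the treatment difference itself depended on sex was tested by the interaction term. For VLDLR it was -0.58 for males minus females (95% interval -1.24 to 0.07, limma unadjusted p = 0.0775, adjusted p = 0.983). For LRP3 it was 0.15 (95% interval -0.48 to 0.78, unadjusted p = 0.618, adjusted p = 0.983). Neither passed, against 3.05% of all probes at an unadjusted p under 0.05, and both intervals held differences of a size close to that between the treatments. With slide as a block the VLDLR term was -0.12 and the LRP3 term -0.22. The unadjusted limma p of the VLDLR term was 0.0311 without control animal horse471, 0.0333 without EE-treated animal horse468 and 0.0447 without control animal horse650, and the adjusted p with a horse left out was never below 0.891. The LRP3 term ran from 0.03 without control animal horse650 to 0.34 without control animal horse645.

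Whether horses high in one receptor were low in the other was examined within each treatment, since the opposite directions between the treatments were fixed by the choice of genes. Over all slides, r in control horses was near 0 (Pearson r = 0.01, exact permutation p = 0.970, adjusted p = 0.970; Spearman rho = 0.02, exact permutation p = 0.982, adjusted p = 0.982, n = 9). In EE-treated horses r was 0.40 (permutation p = 0.251, adjusted p = 0.501, n = 10) and rho 0.37 (permutation p = 0.296, adjusted p = 0.592). The adjusted values are over the 2 treatments. Neither relation passed. Without the 2 horses farthest from the median of VLDLR, r was -0.03 in control horses (without horse477 and horse647) and 0.75 in EE-treated horses (without horse468 and horse475). A slide held at most 2 horses of a treatment. In 4 of 4 slides with 2 control horses and 4 of 5 with 2 EE-treated horses, the horse with more VLDLR also had more LRP3. Each control pair lay at positions 4 and 2 of its slide. The EE pairs lay at positions 3 and 1, except at 3 and 2 on slide 5. Horse and position therefore cannot be told apart within a pair. Taken as deviations from the mean of the treatment on each slide, r was 0.75 in control horses (exact permutation p = 0.125, adjusted p = 0.188, rho = 0.76) and 0.50 in EE-treated horses (exact permutation p = 0.250, adjusted p = 0.250, rho = 0.36), where the 4 and 5 pairs allow no p below 0.125 and 0.0625. Over the 9 pairs together r was 0.63 (exact permutation p = 0.0313, adjusted p = 0.0938) and rho 0.52 (exact permutation p = 0.0586, adjusted p = 0.176), and without the 2 pairs farthest apart in VLDLR r was 0.67. These two-sided tests swap horses within slides, are adjusted over 3 and were chosen after seeing the data. None passed the adjustment.

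**Figure D3:**
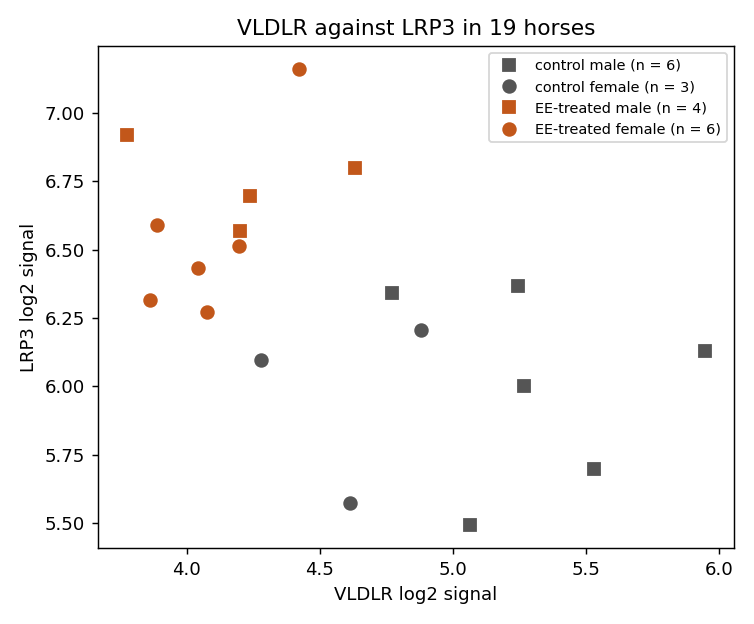
LRP3 against VLDLR log2 signal in the 19 horses, with grey for control, orange for EE-treated, squares for males and circles for females. The groups lie apart along a falling diagonal because the genes were chosen so, while within a treatment r is 0.01 (control, n = 9) and 0.40 (EE-treated, n = 10).

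The wider receptor family could be followed only in small part, because few probes could be named with the reference table used here. Of 16 other family members, 1 had a probe named through its RefSeq accession. This was LRP12, which had signals of 4.48 to 6.42 in control horses and 4.39 to 6.40 in EE-treated horses. Its difference was -0.03 with a standard error of 0.28 (limma unadjusted p = 0.917, adjusted p = 0.972), and its second probe gave 0.14. LRP12 was called by neither probe, against 1.82% of all probes called, and the groups covered nearly the same range.

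LRP5, a Wnt co-receptor of the same family, was named only by the study's lists, which were chosen on these arrays, so its direction is no independent evidence. Its signal ran from 1.45 to 3.88 in control horses and from 2.86 to 4.61 in EE-treated horses. It was well above background in 5 of 9 control and 7 of 10 EE-treated horses, so this was a difference between dim spots. The difference was 0.96 with a standard error of 0.30 (limma unadjusted p = 0.00431, adjusted p = 0.256).

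Of 68 genes of lipoprotein and sterol handling, 5 could be named through RefSeq, and 0 of them were called by limma in either direction, against 1.82% of all probes. At an unadjusted p under 0.05 there was 1 of 5, against 11.7% of all probes, and the median difference of the 5 was -0.06, against 0.06 over all probes. That gene was PLAUR, the urokinase receptor, whose ligand complexes are cleared by receptors of this family. PLAUR was 0.36 higher in EE-treated horses (standard error 0.16, limma unadjusted p = 0.0394, adjusted p = 0.407), and 5 of its 5 probes were higher, 1 of them at an unadjusted p under 0.05.

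The other 4 were given by their differences alone. PLIN2, a coat protein of lipid droplets, differed by -0.25 and HSP90B1, a chaperone of the endoplasmic reticulum, by -0.20. CPT1A, which brings fatty acids into mitochondria, differed by -0.06. CLU, also known as apolipoprotein J, differed by less than 0.01 and by much less than its standard error of 0.30. None of these 4 had an unadjusted p under 0.05.

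With the names of the study's lists added, 8 of the 68 genes were named, of which 1 was called higher and 1 lower, against 1.82% of all probes called, and these additions were chosen on the same arrays. MYLIP was lower in EE-treated horses, as VLDLR was. Its signal ran from 8.17 to 9.08 in control horses and from 7.97 to 8.44 in EE-treated horses, so the groups overlapped. The difference was -0.42 with a standard error of 0.12 (limma unadjusted p = 0.00209, adjusted p = 0.243), and its second probe gave -0.37.

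SQLE, an enzyme of cholesterol synthesis, was 0.50 higher (standard error 0.12, limma unadjusted p = 0.000400, adjusted p = 0.204), with 2 of 2 probes called. NPC1, which moves cholesterol out of lysosomes, differed by -0.41 in its brightest probe, which was not called (limma unadjusted p = 0.0105, adjusted p = 0.307), and 1 of its 3 probes was called. Within treatments, the deviations of MYLIP from the group means had an r of 0.30 with those of VLDLR and 0.0038 with those of LRP3 over 19 horses.

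**Figure D4:**
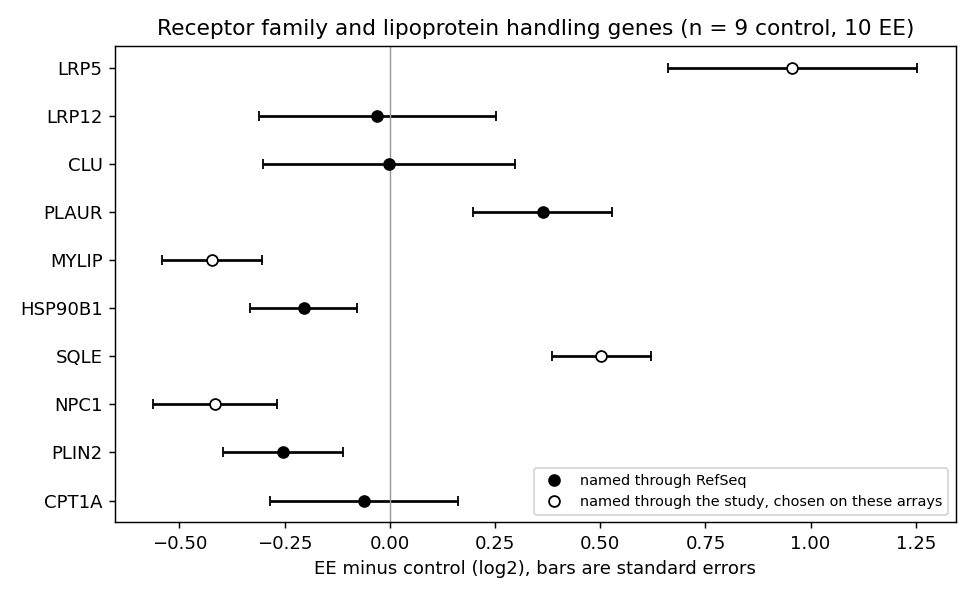
Difference between EE-treated and control horses on the log2 scale, with standard errors (n = 9 and 10), for the family and handling genes that have a named probe. Filled points were named through RefSeq and open points through the study's lists, which were chosen on these arrays, and the open points include the 3 genes called, LRP5, MYLIP and SQLE.

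The genes whose pattern was most like each receptor were found from the deviations of each horse from its group mean, which leave out the difference between treatments. Of 808 other named genes well above background on all arrays, the highest r with VLDLR over 19 horses was that of TNFSF13, a cytokine of B cell survival (0.64). It was followed by the focal adhesion protein TES (0.62), the transcriptional repressor HEY1 (0.61), the actin-severing protein gelsolin (GSN, 0.61) and the hepatocyte growth factor receptor MET (0.56). The median r over the 808 genes was -0.04. The order rested on control horses for part of the genes. HEY1 had an r of 0.87 in control and 0.24 in EE-treated horses, GSN 0.70 and 0.24, and MET 0.68 and 0.17. The values of TES were 0.67 and 0.69, and those of TNFSF13 0.66 and 0.66. The most negative were CCDC28B (-0.66), FGD1 (-0.64) and NAA11 (-0.59).

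For LRP3 the highest were TGFB1, the gene of a cytokine that damps immune responses (0.78), C9orf167 (0.75), MFSD3 (0.73), the proton pump subunit ATP6V0C (0.72) and PGLS, an enzyme of the pentose phosphate pathway (0.70). TGFB1 had an r of 0.78 with LRP3 in control horses and 0.79 in EE-treated horses, so it followed LRP3 alike in both treatments. The most negative were CHTOP (-0.60), ESF1 (-0.55) and PALB2 (-0.54), and the median over all compared genes was 0.05. No gene was among the 5 highest of both receptors. VLDLR and LRP3 had an r of 0.14 with each other, against 0.63 over the 9 pairs of horses taken within slides. The r values of single genes with either receptor, here and in the other paragraphs, leave differences between slides in. These correlations are descriptions without a test, and CCDC28B, FGD1, TGFB1, C9orf167, MFSD3, PGLS, ESF1 and PALB2 were named only through lists chosen on these arrays.

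Markers of blood cells were followed because a shift in the cells of the blood could move with either receptor. The markers that could be named were few: 2 of 11 for neutrophils, 2 of 6 for monocytes, 1 of 7 for B cells, 3 of 8 for T cells, 2 of 5 for NK cells, 1 of 6 for platelets, 3 of 9 for red cells and reticulocytes, and 0 of 5 for eosinophils and basophils. HBB, a haemoglobin chain, and the monocyte marker CD14 were well above background in every horse, while SLC4A1 and TFRC of the red cell markers were so in 0 of 19 by their brightest probe. Since a list held at most 3 named genes, the genes are given one by one.

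FCER2 (CD23), the only named B cell marker, moved in the direction of LRP3. It ran from 7.02 to 8.86 in control horses, with a median of 8.02, and from 7.92 to 9.55 in EE-treated horses, with a median of 8.96. The difference was 0.94 with a standard error of 0.24 (limma unadjusted p = 0.000905, adjusted p = 0.216), and 5 of its 6 probes were called. Within treatments its r was 0.25 with LRP3 and -0.03 with VLDLR over 19 horses.

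Of the neutrophil markers, MMP9 was higher in EE-treated horses by 0.59 (limma unadjusted p = 0.0200, adjusted p = 0.342) and LTF differed by -0.27 (unadjusted p = 0.602). Their summed signal, which follows the brighter MMP9, ran from 11.88 to 13.81 in control and from 12.98 to 14.07 in EE-treated horses, while the median difference of the pair was 0.16. S100A12, a neutrophil marker named only through lists chosen on these arrays, was 0.77 higher (limma unadjusted p = 0.00453, adjusted p = 0.257) and stands outside the sum. Within treatments MMP9 had an r of 0.41 with VLDLR and 0.31 with LRP3, and LTF 0.30 and -0.11.

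The markers of a cell type did not all go one way. Of the monocyte markers CD14 differed by 0.27 and CD68 by less than 0.01, and of the T cell markers CD2 by 0.23, CD28 by 0.14 and IL7R by -0.12. Of the NK cell markers GNLY differed by 0.35 and GZMB by -0.26. The platelet marker ITGA2B differed by 0.11. Of the red cell markers HBB differed by -0.02 with a standard error of 0.91, running from 9.85 to 14.59 in control horses (median 12.10) and from 9.25 to 16.03 in EE-treated horses (median 10.72), while SLC4A1 (0.46) and TFRC (0.08) were not well above background. The named genes of these 5 lists gave 0 calls by limma and 0 unadjusted p under 0.05 in their brightest probe, against 1.82% and 11.7% of all probes.

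Within treatments VLDLR had an r of 0.51 with CD14 and 0.39 with CD68, and of -0.56 with CD2, -0.33 with CD28 and -0.25 with IL7R. For LRP3 these were 0.41 with CD14, 0.53 with CD68, -0.03 with CD2, 0.15 with CD28 and 0.28 with IL7R. These values are descriptions over 19 horses without a test, and the part of blood cell numbers in the VLDLR and LRP3 differences was not tested.

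The brightness of the arrays before scaling, their 75th percentile, was 588 ± 102 (SD, n = 9) in control and 524 ± 134 (SD, n = 10) in EE-treated horses. Within treatments its log2 had an r of -0.04 with VLDLR and 0.13 with LRP3 over 19 horses. With it as a covariate, chosen after seeing the data, the differences were -0.94 for VLDLR and 0.66 for LRP3.

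**Figure D5:**
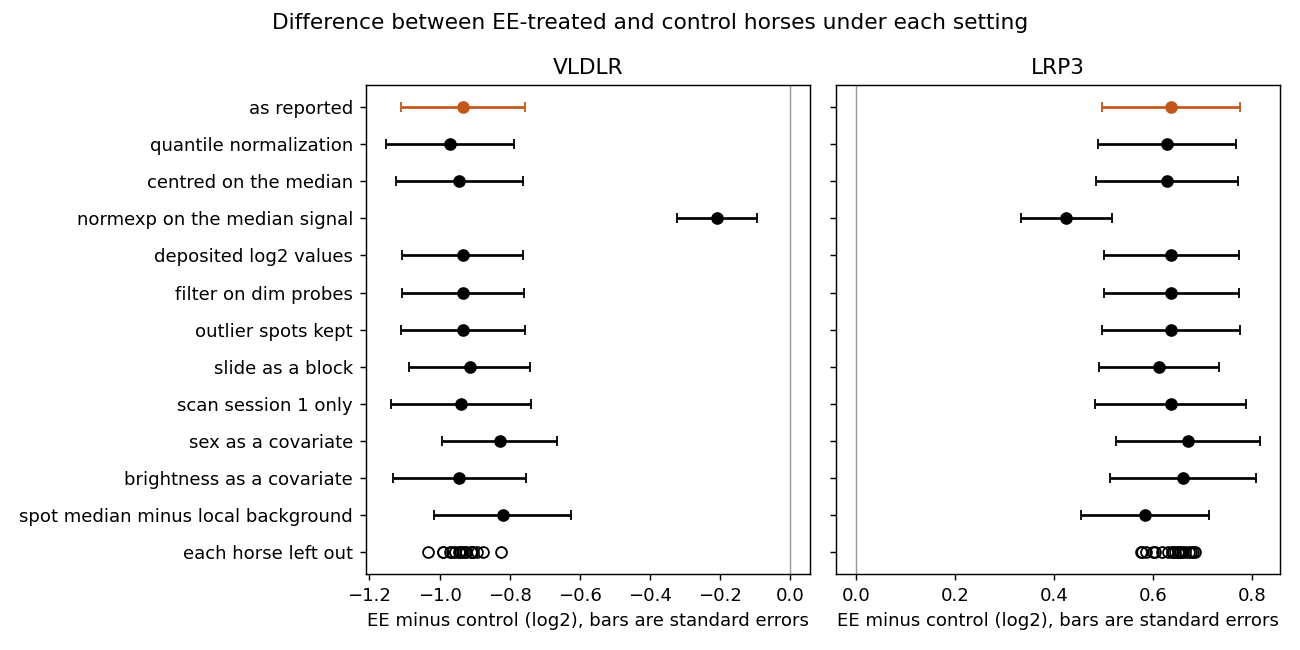
Difference between EE-treated and control horses on the log2 scale for VLDLR (left) and LRP3 (right) as reported (orange) and under each other setting (black), with standard errors, and with open circles for each horse left out in turn. VLDLR stays below 0 and LRP3 above 0 under every setting drawn, the directions on which the genes were chosen, and the VLDLR difference is smallest with normexp (-0.21).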

How the data were processed

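The members and gene lists were chosen with earlier results of these data known. For every array the authors deposited spot intensities, background-corrected by Feature Extraction (version 10.7.3.1 per the file headers, 9.1 per the labels), and a table of log2 values. These deposited log2 values equalled the scaled signal with a floor of 10 within 0.0012 for the 43000 probes with a single spot, with column medians of 5.08 to 5.28. Here, the 43803 non-control spots were scaled on each array so that their 75th percentile was 500, outlier spots left out and spots of a probe averaged. limma 3.58.1 in R 4.3.3 (lmFit, eBayes) was fitted over 43384 probes, with Benjamini-Hochberg adjustment. As an alternative, normexp was run on the median spot and background intensities, leaving out 41 spots with a local background over 60. Permutations were enumerated in full in Python 3.11.15, apart from 1 case. For the correlation over all slides in the 10 EE-treated horses, 100000 resamples were drawn with numpy 2.4.6. Ranks and the adjustment of the correlations used scipy 1.17.1. Of 3275 probes with a RefSeq accession, 1781 were named (assembly TB-T2T, names only), and 732 more through the study's lists. The number of arrays limits the precision.

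Named were all family genes with a named probe, all 8 handling genes with one (5 through RefSeq and 3 through the study's lists, 2 more than the planned 6 because the limit was applied before the lists were added), and for each receptor the 5 genes with the highest and the 3 with the lowest r. The brightest probe stood for a gene. MMP9, the B cell marker FCER2 and the other cell markers came from lists of cell types.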

Additional observations from a re-analysis of the deposited data

Results flagged for a closer look

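In 86 groups of 9 or 10 horses examined for the genes named in the text, 3 held a horse whose gap to its nearest neighbour was a large share of the range of its group, and chance gives about 5% of groups. Neither VLDLR nor LRP3 was among them. CD68 was 9.19 in EE-treated animal horse646, while the rest of the EE-treated group ran from 7.61 to 8.34 (share 0.535), and the same horse had the highest LRP3 signal. ITGA2B was 9.04 in control animal horse650, against 7.62 to 8.31 (share 0.513). PALB2 was 8.43 in control animal horse474, against 7.80 to 8.10 (share 0.514). The causes were not tested.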

How the results depend on the processing

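The direction of both receptors' treatment differences held under 30 of 30 alternatives each. Both genes were chosen on that direction, and the alternatives refit the same arrays, so the count is no test. Without normexp, the VLDLR difference ran from -1.03 to -0.82. With normexp it was -0.21 with a standard error of 0.11. The LRP3 difference ran from 0.42 (normexp) to 0.68. Each horse left out in turn gave -1.03 to -0.82 for VLDLR and 0.58 to 0.68 for LRP3. The median of all probes was 0.14 with normexp and 0.14 with the deposited log2 values, against 0.06. With each horse left out, the male minus female difference of VLDLR ran from 0.30 (without control animal horse647) to 0.49 (without EE-treated animal horse475) with unadjusted p of 0.0918 to 0.00621, and no adjusted p passed. The LRP3 interaction was -0.22 with slide as a block, and the causes of this were not tested. The correlation of VLDLR and LRP3 in control horses was 0.01, -0.031 without 2 horses and 0.75 as deviations from the slide means of the treatment (chosen after seeing the data), and the cause was not tested. In EE-treated horses it was 0.40, 0.75 and 0.50. Called family genes numbered 0, and 1 with the study's names added, and called handling genes 0 and 2, against 1.82% of all probes, where the added names come from lists chosen on the same treatment difference. Probes called between treatments numbered 789 (510 higher, 279 lower), 1004 with slide as a block (745 higher, 259 lower), 826 with quantile normalization (461 higher, 365 lower), 650 with normexp (546 higher, 104 lower), 457 with brightness as a covariate (250 higher, 207 lower, chosen after seeing the data), 501 to 1039 with a horse left out (501 without control animal horse477, 282 higher and 219 lower), and 0 at an adjusted p under 0.05, with 5068 at an unadjusted p under 0.05. The count of 0 at an adjusted p under 0.05 belongs to the fit as reported. It was 7 with normexp, 2 with the filter on dim probes, 3 without control animal horse650 and 1 without control animal horse472. The excess of higher over lower calls was lost without control animal horse470 (314 higher, 330 lower) and small without EE-treated animal horse643 (386 higher, 352 lower). Probes called between the sexes numbered 23, and 15 each with normexp, slide as a block and the first scanning session, 16 to 23 with a horse left out, and 251 at an unadjusted p under 0.005 with the size limit. With r taken without removing group means, 0 of the 5 genes most like VLDLR were shared, and 4 of 5 for LRP3. No paired analysis was possible because control and EE-treated animals share 0 numbers, so the slides, which hold both treatments, were taken as a block instead. VLDLR in EE-treated horses, with a median ratio of spot to background of 2.25, was close to its background, and LRP5 (well above it in 5 of 9 and 7 of 10 horses), SLC4A1 and TFRC (0 of 19) had only a partial measurement or none above it.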
